A study of Xenopus tropicalis with 21 samples.

Results

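The comparison described here sets the liver of mature F1 female frogs descended from an F0 generation kept in benzo[a]pyrene (BaP) against the liver of F1 females of the control line. The species was Xenopus tropicalis, the tropical clawed frog. The BaP lineage was represented by 6 frogs and the control lineage by 5 frogs, out of 21 frogs from 2 generations in the series. F0 animals of the BaP lineage had lived in 50 ng/L BaP from the tadpole stage to maturity. The F1 frogs of both groups were not kept in BaP themselves. "BaP" below therefore names a line of descent, not a treatment of the frogs sampled. No strain, age or time of sampling is given in the sources used here, nor is it said how many F0 animals the frogs of a group descended from. The labels call the libraries of a group biological replicates and say no more of how they were drawn.

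Each library was made from poly(A) RNA of 15 mg of liver with a stranded kit and read as 75 bp reads, per the labels' protocols. The deposited values are FPKM, fragment counts corrected for transcript length and for the size of the library. The authors gave 1 FPKM value per group and gene, so the spread between frogs and the depth of each library are unknown, and no SD stands beside any value. The only measure of error is the q of the authors' Cuffdiff test, a p adjusted for the many genes tested. Genes were taken where that test had been done, the row held 1 gene name, and at least 1 group reached 1 FPKM. This left 11309 genes of 20288 rows. Of these, 10605 reached 1 FPKM in both groups, 311 in the BaP lineage alone and 393 in controls alone. A further 1027 tested rows with 1 name lay below the minimum. The genes nearest to it were cep120 outside, with 0.999 FPKM in BaP and 0.978 FPKM in control livers, and LOC105947595 inside, with 1.0006 FPKM in BaP and 0.962 FPKM in control livers. The fold change is log2((BaP + 0.1)/(control + 0.1)) of the FPKM values, so that positive values mean higher in the BaP lineage. A gene was called, and is said to have risen or fallen, where q was under 0.05.

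BaP is a polycyclic aromatic hydrocarbon of soot and tar. It binds the aryl hydrocarbon receptor, which switches on the enzymes that oxidise and conjugate it, and some of its products bind DNA. The liver carries most of this metabolism. It also makes cholesterol, bile acids, glucose and the secreted proteins of blood, and in egg-laying females the yolk precursor vitellogenin. Cholesterol synthesis is switched on by the SREBP transcription factors when membranes are poor in sterol. Synthesis of glucose is switched on in fasting through the enzymes encoded by pck1 and g6pc.

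The tissue label held. Hepatocyte markers were among the most abundant transcripts in both groups. The iron carrier tf had 2258 FPKM in BaP and 1872 FPKM in control livers, and fibrinogen gamma (fgg) had 2338 FPKM in BaP and 1873 FPKM in control livers. As for differences between the groups, 13 of 18 tested markers had log2 fold changes above 0, beside 53.5% of all genes, and cyp7a1 fell. Most of these markers averaged over 100 FPKM, where values above 0 were more frequent. The share above 0 was 66.2% of all genes between 100 and 1000 FPKM and 93.6% of those from 1000 FPKM upwards. Albumin (alb), vitellogenin A2 (vtga2) and 13 further rows were marked as holding too much data, and the values listed for them are not expression levels. Transcripts of tissues that a liver piece can carry also differed between the groups. In whole tissue, fewer cells of a type and less RNA per cell cannot be told apart.

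In the livers of the BaP lineage 15 genes of cholesterol synthesis and 7 of the motile cilium fell, while 6 antiviral genes, the gluconeogenic gene pck1 and the insulin-like growth factor carrier gene igfbp1 rose. In all, 192 of 11309 genes were called (1.7%), 71 of them higher in the BaP lineage (0.628% of the genes) and 121 lower (1.07%). Beside these shares, 1 call in a list below is not a result about that list. An unadjusted p under 0.05 was given to 978 genes (8.65%), 495 of them higher (4.38%) and 483 lower (4.27%). The median log2 fold change over all genes was 0.03, and 53.5% of genes lay above 0. The middle 90 percent of genes ran from -0.69 to 0.70 on this log2 scale. Every called gene differed by at least 2-fold, the smallest change being that of acot12. The median log2 fold change was 1.67 among the genes that rose and -1.67 among those that fell. A 2-fold difference was not enough for a call: of 559 genes that far apart, 367 were not called, 168 of them higher and 199 lower, and 272 of these had an unadjusted p under 0.05.

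**Figure D1:**
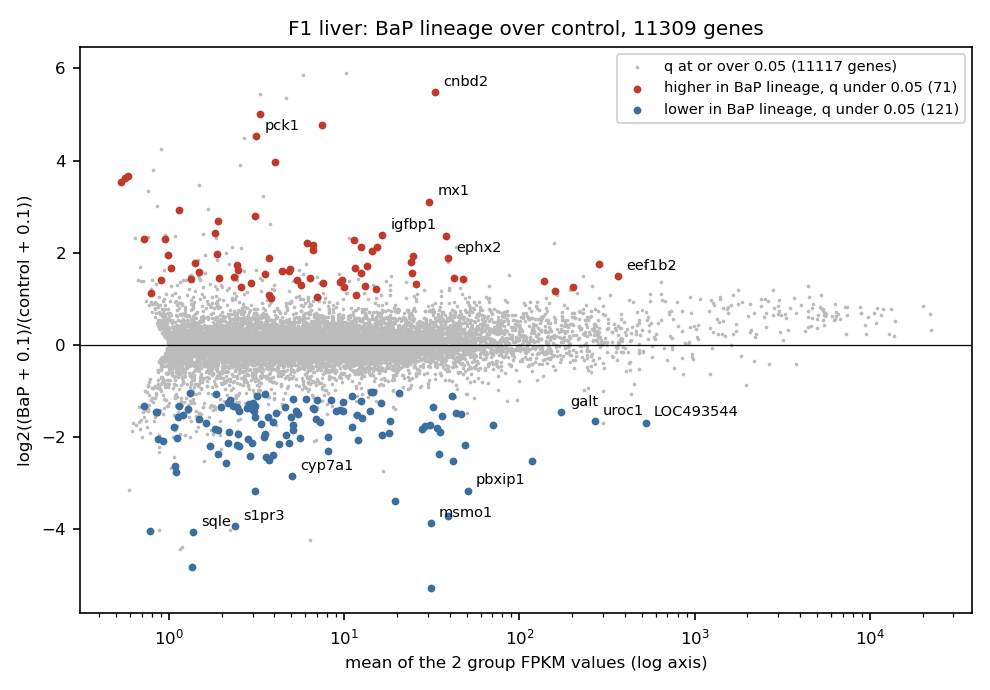
Log2 fold change of each of 11309 genes (BaP lineage over control, with 0.1 FPKM added to both) against the mean of the group FPKM values on a log axis. Red points are the 71 genes that rose, blue points the 121 that fell and grey points the genes that were not called. Above 1000 FPKM no gene was called, yet most points lie above 0.

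Cholesterol synthesis held 15 of the falls. All 21 enzymes of the pathway from acetyl-CoA to cholesterol were tested and reached the minimum; 15 fell and 0 rose in the Cuffdiff test, 19 were lower and 0 higher at an unadjusted p under 0.05, and the median log2 fold change was -1.59. Summed over the pathway, the level was 247 FPKM in BaP livers and 905 FPKM in control livers. Both arms held such falls. Of the 9 enzymes that lead from acetyl-CoA to farnesyl and geranylgeranyl diphosphate, 6 fell, with a median of -1.48. Of the 12 that make squalene and turn it into cholesterol, 9 fell, with a median of -1.82, and all 12 had an unadjusted p under 0.05.

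In the mevalonate arm, HMG-CoA synthase (hmgcs1) had 12.4 FPKM in BaP and 71.5 FPKM in control livers, a log2 fold change of -2.52. The thiolase gene acat2 fell by 1.12, phosphomevalonate kinase (pmvk) by 1.59, mevalonate diphosphate decarboxylase (mvd) by 1.44 and the isomerase idi1 by 1.66 on the log2 scale. Farnesyl diphosphate synthase (fdps) had 26.5 FPKM in BaP and 74.3 FPKM in control livers and was not called. The exception in the arm was ggps1, which makes geranylgeranyl diphosphate for the anchoring of proteins in membranes and not for sterols: it had 28.4 FPKM in BaP livers and 24.98 FPKM in control livers.

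In the sterol arm, the epoxidase gene sqle (chromosome 6, 143392404 to 143401523) had 0.0656 FPKM in BaP livers and 2.66 FPKM in control livers, a log2 fold change of -4.06 that the pseudocount holds down from -5.34 in the authors' deposited table. A pair of enzymes that strip methyl groups from the sterol ring came next: msmo1 had 3.92 FPKM in BaP and 58.5 FPKM in control livers, and cyp51a1 had 5.47 FPKM in BaP and 73.1 FPKM in control livers. Lanosterol synthase (lss), which closes the rings, had 11.2 FPKM in BaP and 58.3 FPKM in control livers. The reductase gene dhcr7, which acts at the end of the pathway, fell by 1.55 and the desaturase sc5d by 1.75 on the log2 scale. The genes nsdhl and hsd17b7 fell by 1.17 and 1.25. Of the members that were not called, ebp and tm7sf2 had log2 fold changes of -2.07 and -0.94, and fdft1, which makes squalene, had 12.7 FPKM in BaP and 25.5 FPKM in control livers. All 15 calls of the pathway had a q between 0.00654 and 0.0367 in the authors' deposited table. Outside the list, erg28, which in yeast holds sterol enzymes together, fell to 6.69 FPKM in BaP livers, against 26.1 FPKM in control livers, and the acetyl-CoA synthetase gene acss2.2 fell to 2.66 FPKM in BaP livers, against 13.5 FPKM in control livers; both were picked after their values were seen.

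**Figure D2:**
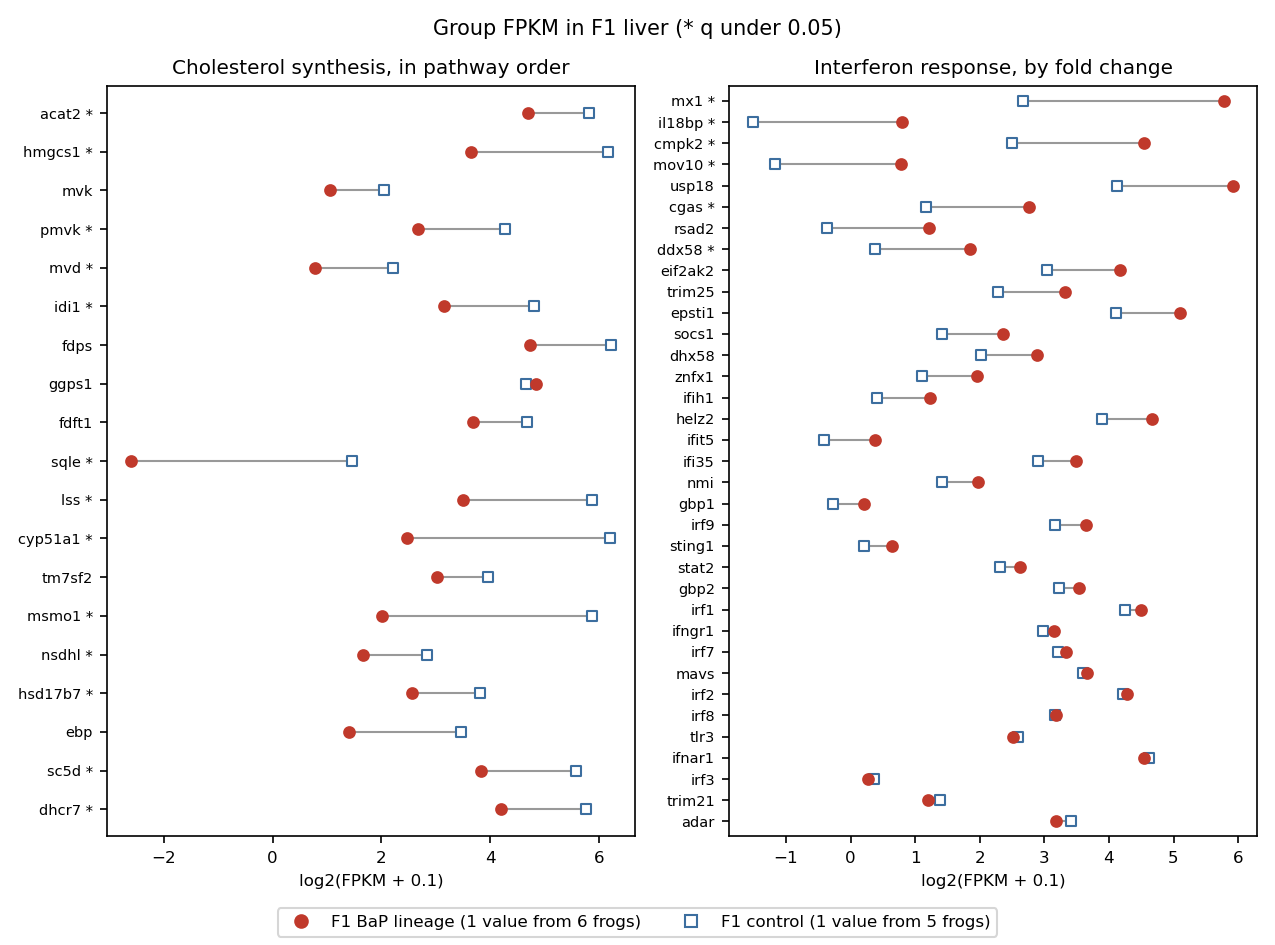
Group levels as log2(FPKM + 0.1) of 19 of the 21 cholesterol synthesis genes in pathway order (left) and of 35 of the 36 interferon response genes that reached 1 FPKM, by fold change (right). Red circles are the BaP lineage and open blue squares the controls; stars mark called genes. In the pathway, the BaP value lies left of the control value for every gene drawn except ggps1.

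The genes that sense and import sterol had smaller differences. Of 21 tested genes of SREBP activation, sterol uptake and export, 0 were called in the Cuffdiff test and 1 was lower at an unadjusted p under 0.05, with a median log2 fold change of -0.19. That gene was srebf2, which encodes the transcription factor that drives cholesterol synthesis: it had 13.01 FPKM in BaP livers and 22.4 FPKM in control livers (log2 fold change -0.78, q = 0.328 in the authors' deposited table). Its lipogenic relative srebf1 had 23.4 FPKM in BaP and 22.4 FPKM in control livers. The LDL receptor gene ldlr had 102 FPKM in BaP and 135 FPKM in control livers. The sterol sensor gene insig1 had 16.9 FPKM in BaP and 22.2 FPKM in control livers. Both ldlr and insig1 are textbook SREBP targets, and neither was called.

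Bile acid genes had 1 call among 17 tested. It was cyp7a1 (chromosome 6, 116352903 to 116357128), the rate-limiting enzyme that turns cholesterol into bile acid, with 1.14 FPKM in BaP livers and 8.86 FPKM in control livers (log2 fold change -2.85). The other 8 synthesis genes ran from a log2 fold change of -0.67 for the hydroxylase cyp39a1 to 0.53 for the reductase akr1d1. Among 5 transport genes 4 were above 0, the largest being slc51b with 25.8 FPKM in BaP and 15.0 FPKM in control livers. The bile acid receptor gene nr1h4 had 19.8 FPKM in BaP livers and 26.1 FPKM in control livers. The FGF19 co-receptor gene klb had 9.41 FPKM in BaP and 6.14 FPKM in control livers. Its hormone gene fgf19 lay below 0.1 FPKM in both groups.

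Fatty acid synthesis held few calls. Of 22 tested genes of fatty acid and triglyceride synthesis, 1 rose and 0 fell, with a median log2 fold change of 0.05 (at an unadjusted p under 0.05, 3 higher and 1 lower in the Cuffdiff test). The gene that rose was the stearoyl-CoA desaturase scd, with 17.5 FPKM in BaP livers and 5.41 FPKM in control livers. Fatty acid synthase (fasn) had 35.4 FPKM in BaP and 29.0 FPKM in control livers. ATP citrate lyase (acly), which supplies acetyl-CoA to both fatty acid and sterol synthesis, had 31.9 FPKM in BaP and 66.8 FPKM in control livers (log2 fold change -1.06, not called).

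Among 40 genes of fatty acid oxidation and lipid mobilisation, 1 rose and 3 fell, with a median log2 fold change of 0.08. The pantetheinase gene vnn1, a target of the fasting receptor PPAR alpha in mouse liver, rose to 3.80 FPKM in BaP livers, against 1.17 FPKM in control livers. Hormone-sensitive lipase (lipe) fell to 5.26 FPKM in BaP livers, against 14.5 FPKM in control livers. The fatty acid carrier gene slc27a4 fell by 1.25 and the thioesterase acot12 by 1.01 on the log2 scale. The receptor gene ppara itself had 2.51 FPKM in BaP and 1.37 FPKM in control livers. The peroxisomal thiolase acaa1 had 46.8 FPKM in BaP and 24.8 FPKM in control livers. In the other direction, ppargc1a of the same list had 0.776 FPKM in BaP and 1.39 FPKM in control livers. None of these genes was called. The soluble epoxide hydrolase gene ephx2, which clears lipid epoxides in peroxisomes and cytosol, rose to 61.2 FPKM in BaP livers, against 16.6 FPKM in control livers (picked after its values were seen).

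Most genes of glucose metabolism were higher in the BaP lineage, with 1 call. The rate-limiting gene of gluconeogenesis, pck1 (chromosome 10, 5408168 to 5414677), had 6.10 FPKM in BaP livers and 0.167 FPKM in control livers, a log2 fold change of 4.54. Its mitochondrial counterpart pck2 had 161 FPKM in BaP and 144 FPKM in control livers. Among 27 genes of glucose and glycogen metabolism at the minimum, 19 lay above 0, beside 53.5% of all genes. Their median log2 fold change was 0.23, or 0.0856 when centred on genes of like FPKM. In the Cuffdiff test 5 were higher and 1 lower at an unadjusted p under 0.05. The glucose transporter slc2a2 had 49.6 FPKM in BaP and 21.8 FPKM in control livers. Tyrosine aminotransferase (tat), a glucocorticoid and fasting target in mammals, had 369 FPKM in BaP and 151 FPKM in control livers, and the transcription factor gene foxo1 had 9.09 FPKM in BaP and 5.26 FPKM in control livers. None of these 3 was called.

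Glucose-6-phosphatase, which frees glucose for export, is present in 3 numbered copies that the list by exact symbol did not take in. In BaP livers g6pc.1, g6pc.2 and g6pc.3 had 1114, 258 and 793 FPKM, against 345, 55.3 and 243 FPKM in control livers. Their log2 fold changes were 1.69, 2.22 and 1.71, and none was called. In the authors' deposited table the q was 0.0631 for g6pc.2, but 0.935 for g6pc.1 and 0.972 for g6pc.3, the more abundant copies. Reads of near-identical copies can be split between them, so these 3 may not be independent readings. How alike the copies are was not examined here.

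The insulin and IGF axis held 1 call among 19 genes, with a median log2 fold change of 0.17, or 0.29 at a minimum of 5 FPKM (2 higher and 0 lower at an unadjusted p under 0.05 in the Cuffdiff test). It was igfbp1 (chromosome 6, 59061028 to 59065930), which binds IGF in blood and is held down by insulin in mammals: it rose to 27.7 FPKM in BaP livers, against 5.24 FPKM in control livers. The growth factor gene igf1 had 2.06 FPKM in BaP and 1.82 FPKM in control livers. The pyruvate dehydrogenase kinase pdk4, a fasting marker in mammals, had 30.2 FPKM in BaP and 22.2 FPKM in control livers and was not called. The mTOR inhibitor gene ddit4 rose to 39.1 FPKM in BaP livers, against 10.1 FPKM in control livers. It was the 1 called member of 29 genes of the endoplasmic reticulum and stress list, and 0 were called lower. In that list the chaperone hspa5 had 13.9 FPKM in BaP and 23.7 FPKM in control livers. Asparagine synthetase (asns) had 8.99 FPKM in BaP and 13.9 FPKM in control livers, with an unadjusted p under 0.05 in the Cuffdiff test and no call. Both flcn and fnip1, whose products form the folliculin complex that signals amino acid supply to mTOR, fell: flcn had 13.4 FPKM in BaP and 27.6 FPKM in control livers, and fnip1 had 7.40 FPKM in BaP and 17.4 FPKM in control livers (both picked after their values were seen).

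Most antiviral genes were higher in the BaP lineage. Interferons are secreted on viral infection, and cells that receive the signal turn on nucleic acid sensors, transcription factors of the STAT and IRF families, and effectors that block viral growth. Of 36 genes of this response that reached 1 FPKM, 6 rose and 0 fell in the Cuffdiff test, 13 were higher and 0 lower at an unadjusted p under 0.05, and 31 lay above 0. Since 6 of the 36 reached the minimum in the BaP lineage alone, the count over all 38 tested members is given as well: 7 rose (the background being 0.608%), 33 lay above 0, and their log2 fold changes had a median of 0.70.

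Differences were larger among effectors than among transcription factors. Among 17 tested effectors the median log2 fold change was 0.99. The GTPase gene mx1 (chromosome 2, 10660888 to 10703222), which traps viral particles, had 55.0 FPKM in BaP livers and 6.29 FPKM in control livers, a log2 fold change of 3.11. The nucleotide kinase cmpk2 had 23.1 FPKM in BaP and 5.57 FPKM in control livers. The helicase mov10 had 1.62 FPKM in BaP and 0.344 FPKM in control livers, and il18bp, which blocks the cytokine interleukin-18, had 1.65 FPKM in BaP and 0.252 FPKM in control livers. The ISG15 protease usp18 had 60.5 FPKM in BaP livers and 17.3 FPKM in control livers, a difference of 1.80 on the log2 scale that was not called (q = 0.478 in the authors' deposited table).

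Sensors followed, with a median log2 fold change of 0.85 over 8 genes. The DNA sensor cgas rose to 6.69 FPKM in BaP livers, against 2.15 FPKM in control livers, and the RNA sensor ddx58 to 3.50 FPKM in BaP livers, against 1.202 FPKM in control livers. Over the other 13 genes, most of them receptors and transcription factors, the median log2 fold change was 0.25. In the Cuffdiff test 0 were called and 1 was higher at an unadjusted p under 0.05. No IRF, STAT or interferon receptor gene of the list had such a p. Here irf1 had 22.5 FPKM in BaP and 18.9 FPKM in control livers and irf7 had 9.95 FPKM in BaP and 9.20 FPKM in control livers.

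Antigen presentation had 1 call among 16 genes, with a median log2 fold change of 0.38. The peptide transporter tap1 rose to 13.7 FPKM in BaP livers, against 5.24 FPKM in control livers, while its partner tap2, below the minimum in both groups, had 0.565 FPKM in BaP and 0.705 FPKM in control livers. Of the immunoproteasome subunits, psmb9 had 20.4 FPKM in BaP and 10.1 FPKM in control livers and psmb8 had 20.3 FPKM in BaP and 22.2 FPKM in control livers. The scavenger receptor gene msr1, expressed by macrophages, rose to 10.97 FPKM in BaP livers, against 4.27 FPKM in control livers, and stat4, which carries interleukin-12 signals in lymphocytes, rose to 2.004 FPKM in BaP livers, against 0.679 FPKM in control livers (both picked after their values were seen). Leukocyte markers lay beside these values as follows: 17 of 20 tested were above 0 with a median log2 fold change of 0.28, 0 were called in the Cuffdiff test, 3 were higher at an unadjusted p under 0.05, and the list summed to 396 FPKM in BaP livers and 327 FPKM in control livers. The pan-leukocyte gene ptprc had 14.1 FPKM in BaP and 13.3 FPKM in control livers. The part of leukocytes in the antiviral result was not tested.

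Genes of motile cilia formed another set of falls. Motile cilia beat by dynein arms on a core of microtubules, and hepatocytes are not known to carry them. Of the 103 listed genes that the table holds, tests were made for 69; 13 of these fell and 0 rose in the Cuffdiff test, against a background of 1.05% of such tests called lower. At an unadjusted p under 0.05, 35 were lower (4.54% of all such tests) and 0 higher (4.38%). In all 60 of 69 lay below 0, with a median log2 fold change of -1.03. The members at 1 FPKM or more had a median of -0.95, which became -0.50 at a minimum of 5 FPKM and -0.61 with a pseudocount of 1 FPKM. Only 52 reached 1 FPKM, 17 of them in controls alone, and 7 of these fell. The list summed to 248 FPKM in BaP livers and 373 FPKM in control livers, over all its members in the table.

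The falls ran through the parts of the cilium. Of 15 tested tektins and proteins inside the microtubules, 4 fell, among them tekt4, cfap45 and cfap52: tekt4 had 1.19 FPKM in BaP and 6.65 FPKM in control livers, cfap45 had 1.51 FPKM in BaP and 6.98 FPKM in control livers, and cfap52 had 1.41 FPKM in BaP and 5.62 FPKM in control livers. Of 18 genes of dynein arms and their assembly, 3 fell, among them the heavy chain dnah9 with 0.101 FPKM in BaP and 0.831 FPKM in control livers. Of 15 genes of radial spokes, central pair and dynein regulation, 3 fell, among them lrrc23 with 0.377 FPKM in BaP and 1.84 FPKM in control livers. Not all members went this way: the heavy chain dnah5 had 12.5 FPKM in BaP and 9.89 FPKM in control livers, and cfap43 had 12.8 FPKM in BaP and 8.18 FPKM in control livers. The transcription factor gene of motile cilia, foxj1, was not tested and had 0.141 FPKM in BaP and 0.588 FPKM in control livers.

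Marker lists of 2 further tissues were set beside the cilium genes. The first holds mostly egg and germ cell genes, so ciliated cells themselves were not read. The list of oviduct, ovary and egg genes summed to 4.80 FPKM in BaP livers and 10.4 FPKM in control livers; 5 of 6 tested were below 0, 0 were called in the Cuffdiff test and 4 were lower at an unadjusted p under 0.05. The oocyte linker histone gene h1-8 had 0.617 FPKM in BaP and 3.35 FPKM in control livers, the progesterone receptor gene pgr had 0.239 FPKM in BaP and 0.629 FPKM in control livers, and zp2, an egg coat gene, was listed at 0 in BaP and at 0.0546 FPKM in control livers. The tested member above 0 was nobox, with 1.86 FPKM in BaP and 1.54 FPKM in control livers. Over 11 tested markers of biliary epithelium the median was 0.05 (0.35 at a minimum of 5 FPKM) and muc2 was called higher; krt19 had 466 FPKM in BaP and 500 FPKM in control livers, and the list summed to 537 FPKM in BaP and 557 FPKM in control livers. The part of these tissues in the cilium result was not tested.

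**Figure D3:**
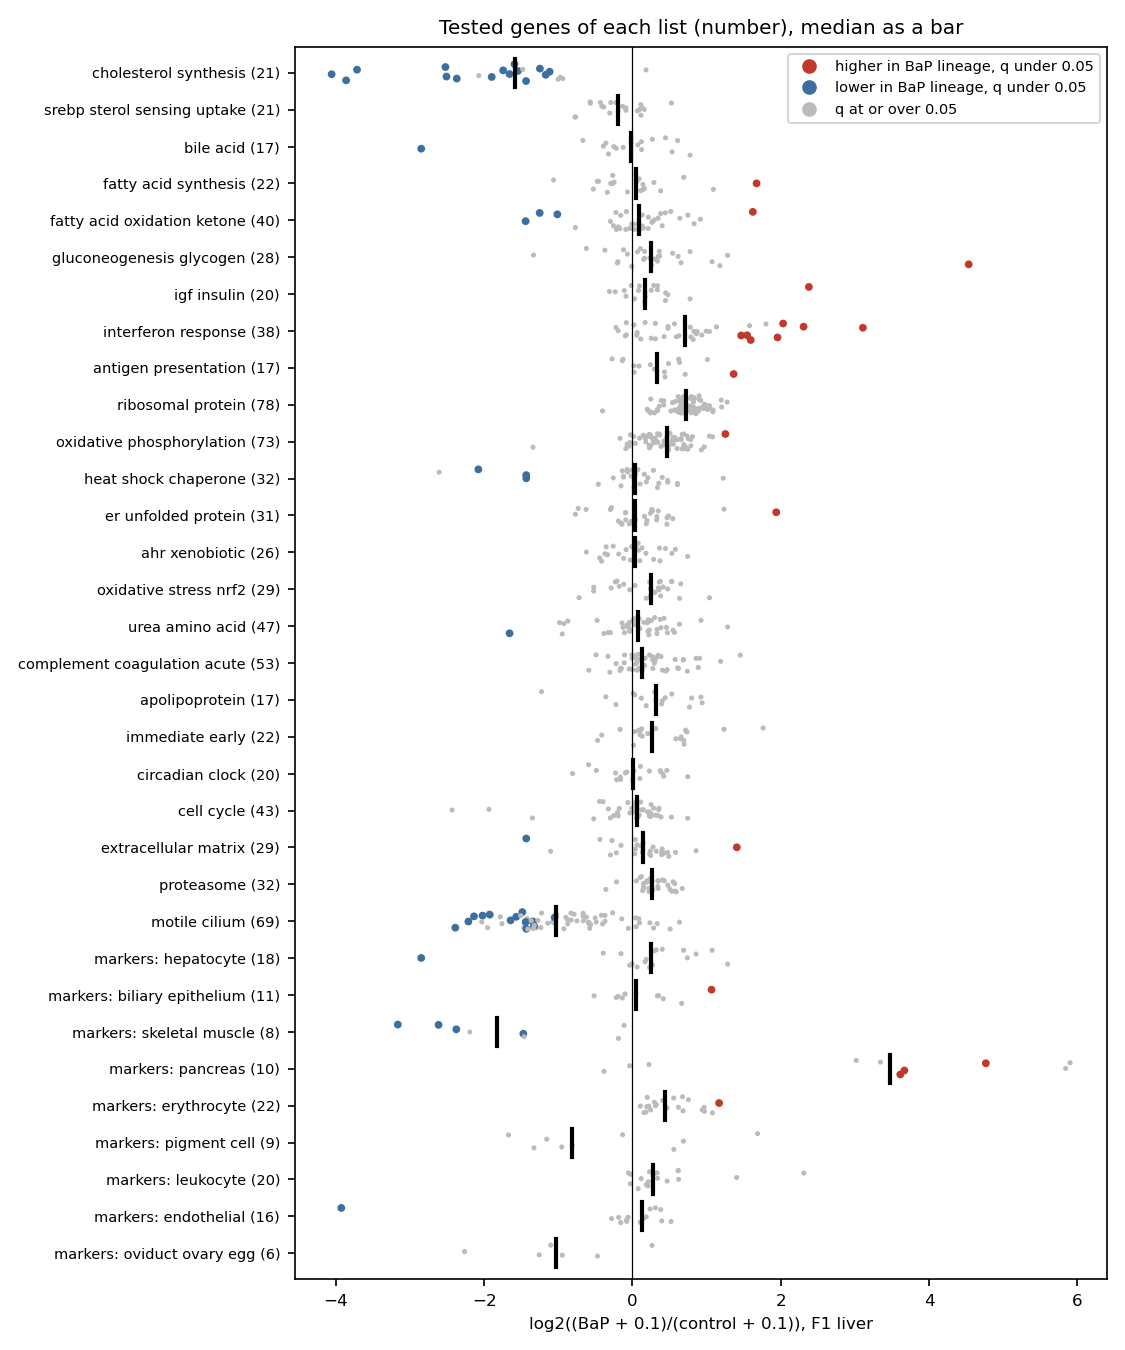
Log2 fold change (BaP lineage over control) of every tested gene of 33 lists, with the number tested in brackets and the median as a black bar. Red points rose, blue points fell and grey points were not called. Most or all tested genes of cholesterol synthesis, motile cilium and skeletal muscle lie left of 0. Most pancreas markers, ribosomal proteins and interferon genes lie right of it.

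Genes of the machinery of protein and energy production were higher, in small steps and almost without calls. Of 78 ribosomal protein genes 77 lay above 0, with a median log2 fold change of 0.72, or 0.06 when centred on genes of like FPKM, a class they mostly fill; 0 were called in the Cuffdiff test and 9 were higher at an unadjusted p under 0.05. Small and large subunits gave medians of 0.70 and 0.77. The exchange factor gene eef1b2, which recharges the elongation factor that brings amino acids to the ribosome, rose to 542 FPKM in BaP livers, against 193 FPKM in control livers, the most abundant of the genes that rose. Oxidative phosphorylation had 66 of 73 genes above 0 and a median of 0.46, with 18 higher and 1 lower at an unadjusted p under 0.05.

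Medians differed between the respiratory complexes. They were not centred on genes of like FPKM, so differences in level between complexes may enter them. The median log2 fold change was 0.26 over 34 genes of complex I and 0.07 over 4 of complex II. It was 0.66 over 9 of complex III with cytochrome c, 0.61 over 12 of complex IV and 0.64 over 14 of complex V. The 1 call was the ATP synthase ring gene atp5mc1, with 286 FPKM in BaP livers and 120 FPKM in control livers. The carrier slc25a5, which exchanges ADP for the ATP so made, rose as well, to 200.3 FPKM in BaP livers, against 76.1 FPKM in control livers. Against the trend, cox7a1, the form of a complex IV subunit typical of muscle and heart in mammals, had 10.7 FPKM in BaP and 27.2 FPKM in control livers and was not called.

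Other abundant genes were higher as well. With both lists left out, 6747 genes whose 2 group values averaged between 1 and 10 FPKM had a median log2 fold change of 0.01, and 3613 genes between 10 and 100 FPKM had 0.03. The 449 genes between 100 and 1000 FPKM had a median of 0.14 and the 50 genes from 1000 FPKM upwards had 0.42. In that top class 75 ribosomal protein genes had a median of 0.71, and in the class of 100 to 1000 FPKM 36 oxidative phosphorylation genes had a median of 0.51. Erythrocyte markers were higher too: 22 of 22 tested were above 0, with a median of 0.44, and 8 were higher at an unadjusted p under 0.05 in the Cuffdiff test. The globin gene hbd rose to 221 FPKM in BaP livers, against 98.2 FPKM in control livers. The list summed to 10985 FPKM in BaP livers and 7006 FPKM in control livers. That sum leaves out the globin genes hba1 and hbg1, which were marked as holding too much data. Most of it was hbg2, with 7562 FPKM in BaP and 5144 FPKM in control livers. The part of erythrocytes in the higher values of abundant genes was not tested. Proteasome genes had 30 of 32 values above 0 and a median of 0.26 (0 called in the Cuffdiff test, 3 higher at an unadjusted p under 0.05).

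The lists of complement, coagulation and acute phase genes and of apolipoproteins had 0 calls in the Cuffdiff test. Rows marked as holding too much data, alb among them, were not tested. Of 52 complement, coagulation and acute phase genes 39 were above 0, with a median log2 fold change of 0.13 that became -0.04 when centred on genes of like FPKM; 3 were higher at an unadjusted p under 0.05, namely c1qa, c1qc and apcs. Of 17 apolipoprotein and lipoprotein genes 14 were above 0, with a median of 0.31, or 0.13 when so centred (0 called in the Cuffdiff test, 2 higher and 1 lower at an unadjusted p under 0.05). With the highest level of the list, apoc1 had 16664 FPKM in BaP livers and 9777 FPKM in control livers. Hepatic lipase (lipc) had 165 FPKM in BaP and 86.1 FPKM in control livers.

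Genes of the response to BaP itself held no call. Of 23 genes of the aryl hydrocarbon receptor and of xenobiotic metabolism 0 were called in the Cuffdiff test, 2 were higher at an unadjusted p under 0.05 and the median log2 fold change was -0.01. The classical target cyp1a1 had 115 FPKM in BaP livers and 101 FPKM in control livers. The receptor gene ahr had 2.09 FPKM in BaP and 1.60 FPKM in control livers, and the feedback gene ahrr lay near 0.1 FPKM in both groups. In the oxidative stress list 0 of 29 were called in the Cuffdiff test and 2 were higher at an unadjusted p under 0.05, prdx3 and sod1. Superoxide dismutase 1 (sod1) had 1266 FPKM in BaP and 616 FPKM in control livers. The estrogen receptor gene esr1 had 6.07 FPKM in BaP and 6.48 FPKM in control livers, and the DNA methyltransferase gene dnmt1 had 4.23 FPKM in BaP and 4.39 FPKM in control livers.

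Chaperone, amino acid and matrix lists held 3, 1 and 2 calls, with serpinh1 in both the first and the last. In the heat shock list 3 of 31 genes fell and 0 rose, with a median log2 fold change of 0.04: hsp70 had 0.292 FPKM in BaP and 1.56 FPKM in control livers, hsp90aa1.2 had 1.31 FPKM in BaP and 3.72 FPKM in control livers, and the collagen chaperone serpinh1 had 7.49 FPKM in BaP and 20.4 FPKM in control livers. The abundant constitutive chaperone hspa8 had 372 FPKM in BaP and 268 FPKM in control livers. Urea cycle and amino acid genes had 1 call among 47, where 1.7% of all genes were called. It was urocanase (uroc1) in histidine breakdown, which fell to 129 FPKM in BaP livers, against 408 FPKM in control livers. The urea cycle enzymes ass1 and asl were lower without a call, with log2 fold changes of -0.87 and -0.98. In the matrix list emilin1, an elastic fibre protein, rose to 7.84 FPKM in BaP livers, against 2.89 FPKM in control livers, and serpinh1 fell, while the collagen gene col1a1 had 21.3 FPKM in BaP and 11.7 FPKM in control livers, out of 28 genes with a median of 0.18.

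Immediate early, clock and cell cycle genes had 0 calls in the Cuffdiff test. Among 22 immediate early genes 19 were above 0 (median 0.26, or 0.69 at a minimum of 5 FPKM), and 5 had a higher value with an unadjusted p under 0.05, the largest difference being that of nr4a2 with 9.44 FPKM in BaP and 2.71 FPKM in control livers. Of 19 clock genes 1 was higher (cry2) and 1 lower (arntl) at an unadjusted p under 0.05, with a median of 0.02. Of 36 cell cycle genes 1 was lower at an unadjusted p under 0.05, ccnb2, and the median was 0.05.

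Markers of other tissues were among the largest changes. Of 8 tested skeletal muscle genes 4 fell and 8 were below 0: acta1 had 0.539 FPKM in BaP and 5.63 FPKM in control livers, tnnt1 had 0.233 FPKM in BaP and 1.94 FPKM in control livers, tnni1 had 0.547 FPKM in BaP and 3.26 FPKM in control livers, and ckm had 2.12 FPKM in BaP and 6.06 FPKM in control livers. Of these, acta1, tnnt1 and tnni1 passed the minimum in controls alone. The muscle list summed to 14.3 FPKM in BaP livers and 31.1 FPKM in control livers. In these sums tpm2 held 9.24 FPKM in BaP livers and 10.01 FPKM in control livers, and casq1 was listed at 0 in both. Of 10 tested pancreas genes 3 rose. The protease precursor ctrc had 14.4 FPKM in BaP livers and 0.433 FPKM in control livers, and ctrb2 and cpb1 had 1.17 and 1.12 FPKM in BaP livers and were listed at 0 in control livers. The trypsinogen gene prss1 had 20.4 FPKM in BaP and 0.242 FPKM in control livers without a call, whereas the lipase genes pnlip and pnliprp1 were listed at 0 in both groups. The amylase genes amy2a and amy2b made up most of the list's level, with a sum of 650.4 FPKM in BaP livers and 617 FPKM in control livers. The other 20 pancreas genes of the table summed to 57.1 FPKM in BaP livers and 6.55 FPKM in control livers, and 7 of the 10 tested genes passed the minimum in the BaP lineage alone.

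Pigment cell and endothelial markers held 1 call between them. Of 9 tested pigment cell genes 5 were lower and 1 higher at an unadjusted p under 0.05 and 0 were called in the Cuffdiff test; mlana had 0.979 FPKM in BaP and 2.61 FPKM in control livers, and the list summed to 61.0 FPKM in BaP livers and 68.9 FPKM in control livers. Of 16 tested endothelial genes 1 was called, the sphingosine-1-phosphate receptor s1pr3, which fell to 0.205 FPKM in BaP livers, against 4.55 FPKM in control livers. Among the other endothelial markers stab1 had 78.1 FPKM in BaP and 82.5 FPKM in control livers, the median of the tested genes was 0.13 (-0.06 for those at 1 FPKM or more), and the list summed to 135 FPKM in BaP livers and 141 FPKM in control livers. With the genes of these 8 marker lists left out, 183 genes were called, 67 higher and 116 lower.

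Beyond the lists, 139 of the 192 called genes belonged to none of them. The largest rise was that of cnbd2 (chromosome 6, 12592832 to 12604435), which encodes a protein with a cyclic nucleotide binding domain: it had 64.2 FPKM in BaP livers and 1.34 FPKM in control livers, a log2 fold change of 5.48. LOC100498591 followed with 6.497 FPKM in BaP and 0.104 FPKM in control livers, and LOC100494627 with 7.69 FPKM in BaP and 0.397 FPKM in control livers. The secreted protein gene msmb.1 had 18.8 FPKM in BaP and 3.82 FPKM in control livers. The largest fall was that of LOC116410399 (chromosome 4, 59994334 to 60003384), with 1.49 FPKM in BaP livers and 60.9 FPKM in control livers. Next to it on the chromosome lies pkd1l3, which fell to 0.971 FPKM in BaP livers, against 3.99 FPKM in control livers. LOC100491742 and LOC116407845 were listed at 0 in BaP livers and had 2.72 and 1.55 FPKM in control livers. The gene pbxip1 (chromosome 8, 145129077 to 145161082), whose product binds PBX transcription factors, had 10.1 FPKM in BaP and 91.0 FPKM in control livers, and the transglutaminase gene tgm4 had 0.209 FPKM in BaP and 1.99 FPKM in control livers. The 20 largest rises had a q between 0.00654 and 0.0435 and the 20 largest falls between 0.00654 and 0.0386 in the authors' deposited table.

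Among the most abundant genes called, LOC493544 fell to 249 FPKM in BaP livers, against 803 FPKM in control livers, and LOC101732737 rose to 438 FPKM in BaP livers, against 130 FPKM in control livers. Galactose-1-phosphate uridylyltransferase (galt), which feeds galactose into glycolysis, fell to 92.7 FPKM in BaP livers, against 255 FPKM in control livers. The cytochrome b5 reductase gene cyb5r2 fell to 32.5 FPKM in BaP livers, against 109 FPKM in control livers.

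**Figure D4:**
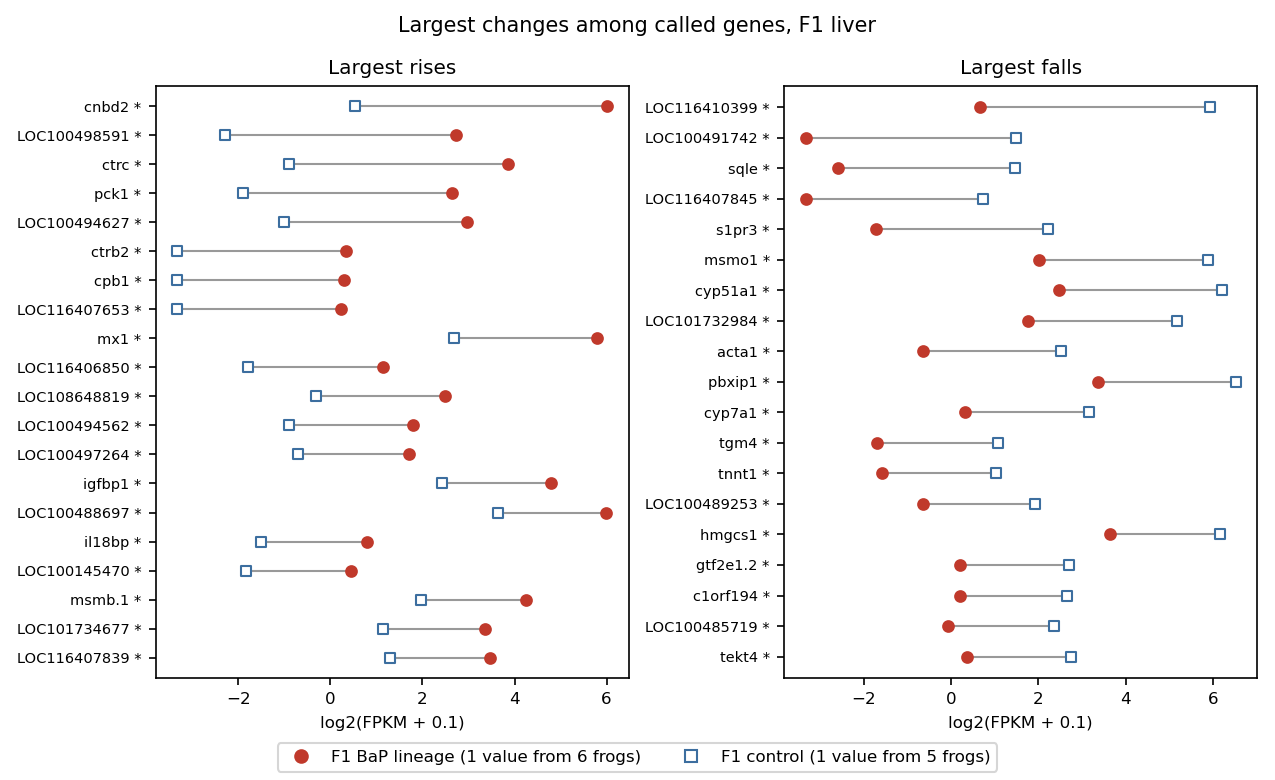
Group levels as log2(FPKM + 0.1) of the 20 called genes with the largest rise (left) and of 19 of the 20 with the largest fall (right). Red circles are the BaP lineage and open blue squares the controls, 1 value each; genes listed at 0 in a group sit at the left edge. Of the genes shown, 11 of the rises and 6 of the falls have only a LOC identifier.

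Called genes were uneven in name and place. Genes with only a LOC identifier made up 70 of the 192 calls; 5.36% of the 1305 such genes were called, against 1.22% of the 10004 genes with a symbol. Their median mean level was 3.49 FPKM, against 6.82 FPKM for genes with a symbol. Chromosomes 8 and 9 held 76 of the calls among 2270 of the genes, with 3.13% and 3.70% of their genes called. The other chromosomes ran from 0.791% on chromosome 10 to 2.13% on chromosome 7. Both kinds of gene took part. On chromosomes 8 and 9, 10.5% of LOC genes were called, against 3.17% elsewhere. For genes with a symbol the share was 1.86%, against 1.07% elsewhere. The pair was picked for its high shares, so the contrast with elsewhere is a description and not a test. LOC genes made up 391 of the 2270 genes on the pair, against 1305 of 11309 in all.

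**Figure D5:**
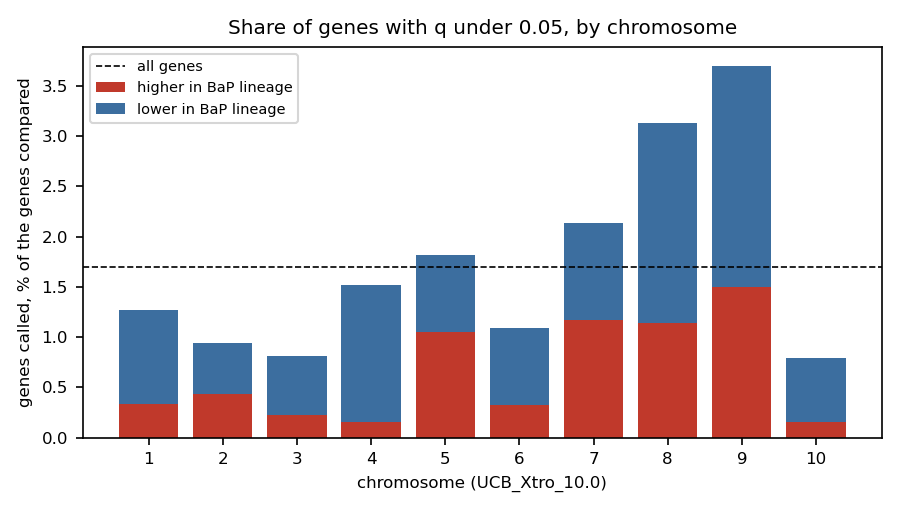
Percent of the genes compared on each chromosome that rose (red) or fell (blue) in the BaP lineage, with the share over all genes as a dashed line. Chromosomes 8 and 9 stand at 3.13% and 3.70% against 1.7% overall.

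Some calls were neighbours. Of 185 called genes whose ends matched the annotation, 31 (16.8%) lay within 100 kb of another gene called in the same direction, in 15 groups of 2 or 3, 7 of them higher and 8 lower. The share that as many genes drawn from the whole map would give was not computed, so 16.8% does not show clustering. The group of 3 lay on chromosome 8 from 134119325 to 134268085, where LOC100494930, LOC116406581 and LOC100495542 rose by 1.45, 1.34 and 1.30 on the log2 scale, and all 4 genes compared in the stretch were above 0. On the same chromosome pbxip1 and pmvk, a gene of the cholesterol pathway, lie side by side and both fell. Not every group was uniform: on chromosome 9 from 1746601 to 1856575, where LOC101734480 and LOC493544 fell, 2 of the 6 genes compared were above 0. Neighbours that are copies of each other can share reads, so that such groups may hold fewer independent readings than genes.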

How the data were processed

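Liver RNA of 21 frogs was sequenced, and 6 F1 BaP and 5 F1 control frogs enter here. Cuffdiff 0.0.7, Cufflinks 0.0.7, HISAT2 and Trimmomatic 0.32.1 are named in the submitters' processing notes without their order. These version numbers are copied as given and may not be those of the tools themselves. The sources used here give no parameters. Per the file headers, the deposited FPKM is a single value per group that the authors' Cuffdiff run produced. The deposited log2 fold change (BaP over control) has no pseudocount, and a test statistic, an unlabelled score, stands beside the deposited p-value and q-value. The smallest p was 5e-05 and was shared by 87 of the genes, so that order among them is lost. How reads shared by gene copies, overlapping genes or strands were counted is not given in the sources used here.

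From the table, genes with status OK, 1 name and 1 FPKM in a group were kept, and log2((BaP + 0.1)/(control + 0.1)) was computed with pandas 2.3.3 in Python 3.11.15. No test was fitted here: a call is the authors' q under 0.05. The table marked 7847 rows as not tested and 15 as holding too much data, and 90 tested rows held several names or none. Gene names were looked up in RefSeq's table for UCB_Xtro_10.0, which held all 11309. For 90.8% both ends were identical, and positions on that assembly, counted from 1, are given for such genes only. In the genes kept, 4 names occur on more than 1 row.

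The 33 lists, 24 of processes and 9 of cell types, were written from textbook knowledge and matched by exact symbol. Lists, genes and alternatives were chosen with earlier results of these data known. They are described by counts and medians with no test, so that a median stands only beside that of all genes. Named genes were the 20 largest rises and falls among called genes, the called members of each list (or the 3 with the smallest p), 19 fixed genes where tested, and the 10 most abundant called genes; other genes were chosen after their values were seen. The adjustment of p-values used in an alternative was tested on simulated data. Other fits were not possible without values of single libraries. Promoter sequences were not analysed here. Some genes are not reported here, though they stay in the counts and medians.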

Additional observations from a re-analysis of the deposited data

Results flagged for a closer look

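The authors' test called 15 rows that the rule of the comparison left out, 5 higher and 10 lower in the BaP lineage, with a q between 0.00654 and 0.0461 in the authors' deposited table. They came to attention as signal in data that the comparison did not use. Of these, 13 lay under 1 FPKM in both groups and 2 held several gene names. Cilium genes made up 6 of the 15 (dnah9, spag17, ak9, dnah1, tppp3 and hydin), each lower in the BaP lineage. The antiviral gene samd9l had 0.684 FPKM in BaP livers and 0.168 FPKM in control livers, and the mucin gene muc2 had 0.851 FPKM in BaP and 0.354 FPKM in control livers. The row that joins LOC116407969 and LOC116407970 had 71.8 FPKM in BaP livers and 26.3 FPKM in control livers, and the row that joins LOC100485355 and LOC100497613 had 4.22 FPKM in BaP and 17.8 FPKM in control livers.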

How the results depend on the processing

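With q under 0.01 the 192 calls became 87 (28 higher, 59 lower), and with q under 0.1 they became 291 (119 higher, 172 lower). A minimum of 5 FPKM left 121 calls (49 higher, 72 lower), since fewer genes were counted. The other 6 alternatives for the count gave between 178 and 205. Of 263 recomputed list medians 34 moved by 0.1 or more, and 11 changed sign, 9 of them in lists whose median lay within 0.1 of 0 (among them fatty acid synthesis, xenobiotic, clock, biliary and endothelial genes). The other 2, which are not among the 34, had medians further from 0: centred on the median of genes of like FPKM, complement, coagulation and acute phase genes gave -0.0409 and hepatocyte markers -0.0125. Centred in the same way, ribosomal proteins gave 0.06, in a class they mostly fill themselves, and oxidative phosphorylation 0.34. All 82 named called genes kept their direction in each alternative that gave a finite value. Taking genes by the mean of both groups, and numbered copies of a symbol, were alternatives chosen after seeing the data. No paired analysis was possible because the table holds no values of single frogs, and leaving out frogs could not be run for the same reason. The depth of the libraries is unknown, and genes near 1 FPKM hold the fewest reads for their length.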

Other observations

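Several genes of other functions differed by at least 2-fold without a call; all were picked after their values were seen. The interferon-inducible genes gbp6, ddx60 and herc6, in no list, had 70.4, 25.02 and 17.5 FPKM in BaP livers, against 16.1, 9.48 and 6.38 FPKM in control livers. Of enzymes that handle fructose and its protein adducts, ketohexokinase (khk) had 34.0 FPKM in BaP and 75.7 FPKM in control livers, and fn3k and its relative fn3krp had 281 and 50.5 FPKM in BaP livers, against 585 and 118 FPKM in control livers. The gene tsc22d3, induced by glucocorticoids in mammals, had 382 FPKM in BaP livers and 190 FPKM in control livers. Cysteine dioxygenase (cdo1), which starts the path to taurine, had 95.7 FPKM in BaP and 39.2 FPKM in control livers. Prostaglandin D synthase (ptgds) had 930.1 FPKM in BaP livers and 362 FPKM in control livers.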
